A study of Mus musculus with 4 samples.

Results

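The genes described here encode 8 proteins that make, use or compete for arginine, nitric oxide and itaconate in activated macrophages: Nos2, Gch1, Slc7a2, Ass1, Asl, Arg1, Arg2 and Acod1. They were picked by symbol from the 24473 genes with FPKM values (fragments scaled to gene length and library total), and all 8 symbols were found once each. The libraries were made from BV-2 cells, an immortalised mouse line used as a model of microglia, the macrophages of the brain. SIX2 is a homeobox transcription factor, and 2 libraries were labelled as its knockdown while the other 2, labelled wild type, serve as control. Their column names share the prefix sh, so the control may have carried a control hairpin, which the labels do not say. Every library, control included, came from cells given 100 ng/mL of lipopolysaccharide (LPS), a bacterial cell wall component, for 24 h, and no library without LPS was analysed here. The labels do not say whether the replicates were separate cultures or whether the knockdown is 1 clone or a pool, so the p-values speak for the scatter among these 4 libraries, which may be technical.

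Macrophages that sense LPS switch on inducible nitric oxide synthase, encoded by Nos2, which turns arginine into nitric oxide and citrulline. The enzyme needs tetrahydrobiopterin, whose synthesis starts with the product of Gch1, and arginine, which enters through carriers such as the product of Slc7a2 or is rebuilt from citrulline by the products of Ass1 and Asl. The arginases encoded by Arg1 and Arg2 split the same arginine into ornithine and urea, and high Arg1 is a classical mark of alternatively activated (M2-type) mouse macrophages. Acod1 encodes the mitochondrial enzyme that makes itaconate from cis-aconitate, a side branch of the citric acid cycle opened by LPS.

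The knockdown libraries held 74.7 and 64.3 M deposited counts and the control libraries 75.7 and 61.0 M. Low counts peaked at multiples of 4, which puts 1 fragment at about 4 counts, and a count of 0 was read as allowing up to 12 counts, or 3 fragments, which covers counting error only. The targeted gene Six2 had a count of 0 in all 4 libraries, so the knockdown could not be checked on its own mRNA. The macrophage and microglia markers were abundant in every library, with a summed 1289 and 1269 FPKM over 10 genes in knockdown and 1357 and 1426 FPKM in control libraries, and 3 of the 10 (Csf1r, Aif1 and Adgre1) fell. Of the homeostatic microglia markers, only Tmem119 was well above the floor, with 5.69 and 4.67 FPKM in knockdown and 10.2 and 8.83 FPKM in control libraries. Tmem119 did not pass the edgeR test described below. P2ry12, Sall1 and Siglech were at 0 to 24 counts.

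Knockdown library 2 stood apart in traces of other tissues. Alb, the serum albumin gene of hepatocytes, had 0 and 1212 counts in knockdown and 0 in both control libraries. Cps1 and Otc, the mitochondrial urea cycle enzymes of liver, had 73 and 4 counts in knockdown library 2 and 0 in the other libraries. The summed level of these 3 hepatocyte markers was thus 7.43 FPKM in that library. The oligodendrocyte marker Mbp, the gene of myelin basic protein, ran the other way, with 298 and 4 counts in knockdown and 658 and 575 counts in control libraries. Neuronal markers summed to 0.367 and 0 FPKM in knockdown and to 0.869 and 0.696 FPKM in control libraries, and the lists for astrocytes, endothelium and fibroblasts reached at most 0.495 FPKM in any library. Because liver is rich in Arg1, Ass1 and Asl mRNA, these values are set beside those genes, and every call below is also given without that library.

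**Figure D1:**
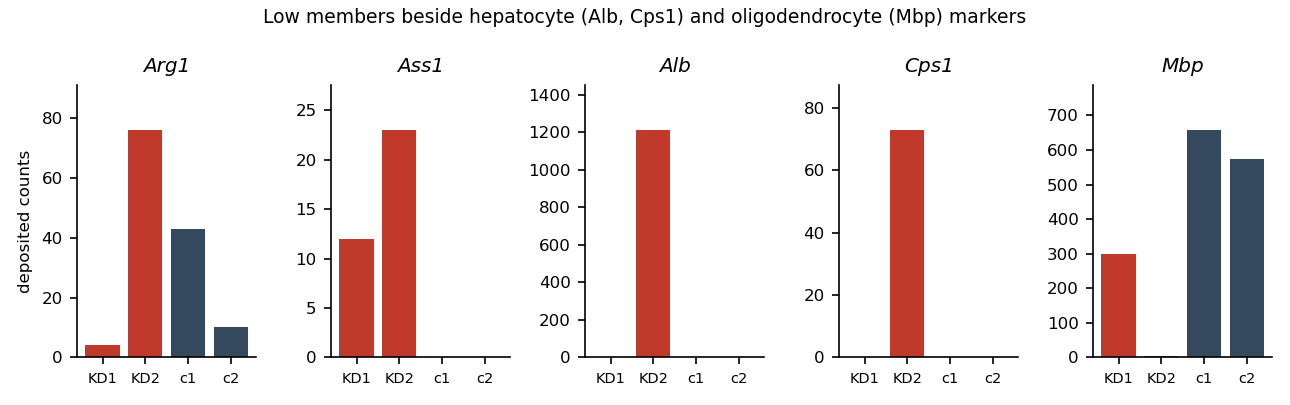
Deposited counts (vertical axes, each from 0) of Arg1 and Ass1 beside the hepatocyte markers Alb and Cps1 and the oligodendrocyte marker Mbp, 1 bar for each knockdown (KD, red) and control (c, dark) library. Alb and Cps1 were at 0 outside knockdown library 2, which also had the highest Arg1 and Ass1 counts and the lowest Mbp count.

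Nos2 and Acod1 fell in the knockdown libraries, and the other 6 genes did not pass the test. Both were well expressed in all libraries. Across all 15733 genes tested with edgeR, 0.953% passed a Benjamini-Hochberg adjusted p of 0.05, with 0.547% lower and 0.407% higher, against 2 lower and 0 higher among these 8 genes. Knockdown and control values were fully separated for 5 of the 8, as they were for 47.6% of all tested genes. The 5 include Ass1, which passed the filter on low counts only through the knockdown libraries. Its counts there were 12 and 23, against 0 in both control libraries. Since a 0 allows up to 12 counts, the separation of Ass1 carries no weight. All 8 genes passed that filter, but 3 of them (Arg1, Arg2 and Ass1) averaged under 1 CPM (counts scaled to the library total).

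**Figure D2:**
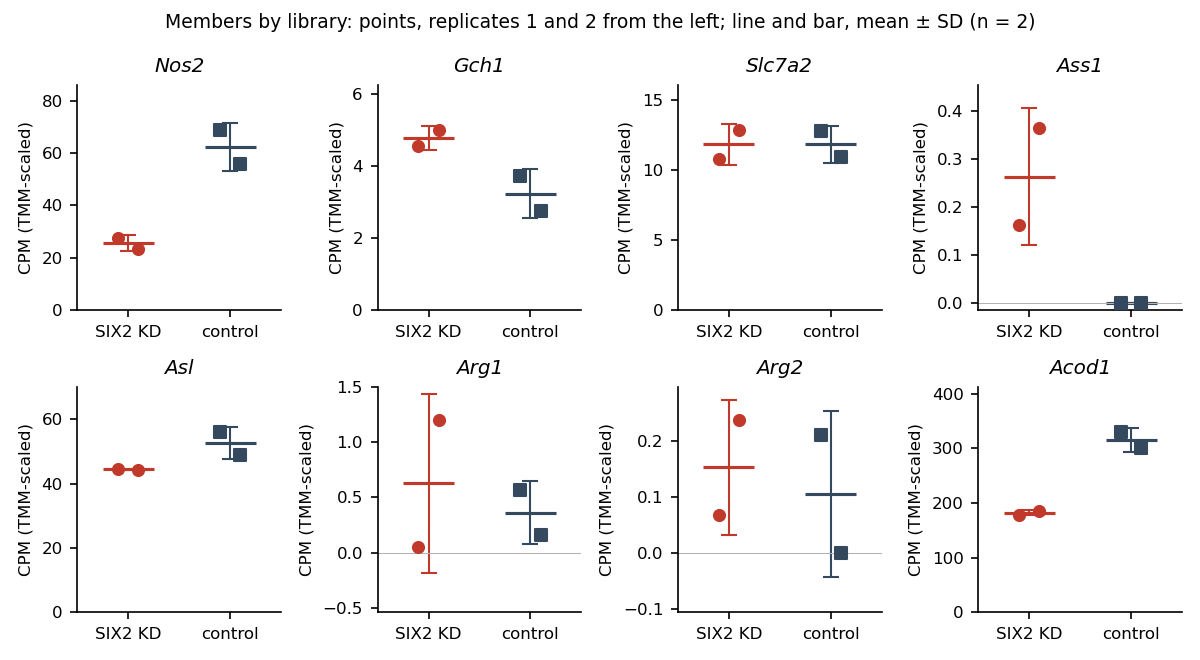
CPM of the 8 genes, scaled by TMM (edgeR's trimmed-mean library scaling), with 1 point per library, the line at the mean and the bar at ± SD (n = 2 each). Knockdown points lie below control points for Nos2, Acod1 and Asl and above them for Gch1 and Ass1, while the groups overlap for Slc7a2, Arg1 and Arg2. Axes start at 0 except for Arg1 and Arg2, where the SD bar passes below 0, and Ass1.

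Ranked by level per gene length, Acod1 came first, Asl and Nos2 were close to each other, Slc7a2 and Gch1 were near or below 1 FPKM, and Arg1, Arg2 and Ass1 were at trace levels. Acod1 exceeded 97.3% of the 24473 genes in mean FPKM over the 4 libraries, Asl 80.2% and Nos2 80.1%. Slc7a2 exceeded 56.9% and Gch1 51.5%. Asl and Nos2 exchanged places between the groups: the ratio of Nos2 to Asl FPKM was 0.677 and 0.574 in knockdown libraries and 1.34 and 1.24 in control libraries. The FPKM of Slc7a2 stayed above that of Gch1 in every library, whereas Arg1, Arg2 and Ass1 could not be ordered, since their libraries overlapped.

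**Figure D3:**
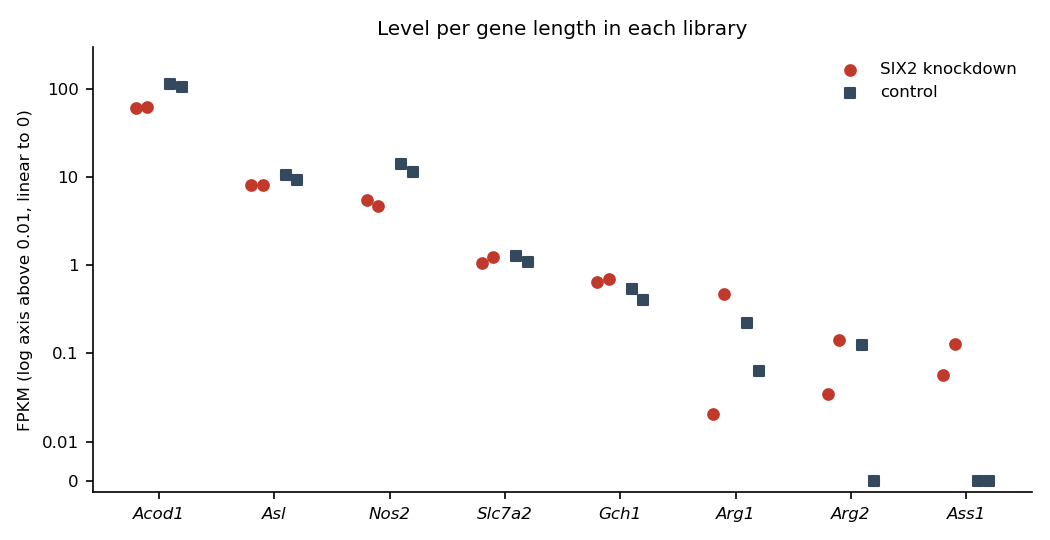
FPKM of the 8 genes in each library on an axis that is logarithmic above 0.01 and linear down to 0, genes ordered by their mean over the 4 libraries. Red circles are knockdown and dark squares are control libraries, and 3 values are listed at 0, those of Ass1 in both control libraries and of Arg2 in control library 2.

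The series title places SIX2 in the M2 polarisation of microglia, and Nos2 is the classical mark of the opposite, pro-inflammatory (M1-type) state. Nos2 (ENSMUSG00000020826, chromosome 11, 78920787 to 78960254, plus strand, GRCm38), a single-transcript gene model with no overlapping gene, had 2053 and 1479 counts in knockdown and 5260 and 3461 counts in control libraries. In CPM these were 27.7 and 23.4 in knockdown and 69.0 and 56.0 in control libraries, so the lower control library was more than 2 times the higher knockdown library. The groups did not overlap. The fitted log2 fold change of Nos2 was -1.29 ± 0.14 (SE, 95% interval -1.63 to -0.96, adjusted p = 0.0159 by edgeR's quasi-likelihood test), which is a level 0.409 times that of control. In bulk RNA, fewer cells that express a gene and less mRNA per cell cannot be told apart. The direction was the same in every fit, but the call was lost without control library 1 (log2 fold change -1.13, adjusted p = 0.0599) and without knockdown library 2 (-1.17, adjusted p = 0.0985). It was also lost without edgeR's robust option (adjusted p = 0.0634), and the range over the 17 alternatives was 5.71e-12 to 0.233.

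Gch1, GTP cyclohydrolase 1, the first and rate-limiting enzyme of tetrahydrobiopterin synthesis, did not pass the test, and both knockdown values lay above the control values. It lies on the minus strand of chromosome 14 (ENSMUSG00000037580, 47153895 to 47189413) and overlaps a processed pseudogene on each strand, which makes its counts less certain. It had 4.55 and 5.01 CPM in knockdown and 3.71 and 2.75 CPM in control libraries, without overlap. The log2 fold change was 0.56 ± 0.27 (SE, 95% interval -0.09 to 1.22, adjusted p = 0.426 by edgeR). Within a library the ratio of Nos2 to Gch1 FPKM was 8.61 and 6.60 in knockdown against 26.2 and 28.9 in control libraries.

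Of 7 other genes of tetrahydrobiopterin synthesis, recycling and control, 6 were tested, 0 passed in either direction, and their median log2 fold change was 0.00, against -0.01 over all tested genes. Among the more abundant by FPKM were Qdpr and Pcbd2. Qdpr, which recycles the cofactor, had 73.8 ± 23.5 CPM in knockdown and 76.0 ± 27.9 CPM in control libraries (SD, n = 2 each), with replicates that differed widely. Pcbd2, a pterin dehydratase, had 12.7 ± 0.456 CPM in knockdown and 16.8 ± 1.15 CPM in control libraries (SD, n = 2 each). Of the 6 tested, only Pcbd2 lay under an unadjusted p of 0.05 in edgeR (adjusted p = 0.260), beside 14.2% of all tested genes.

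Of 14 genes of the other nitric oxide synthases, their modulators and nitric oxide handling, 10 were tested and 0 passed by edgeR. An unadjusted p under 0.05 in edgeR was seen for 2 of the 10, both higher, beside 14.2% of all tested genes in either direction. Those 2, chosen after their values were seen, were Ddah1, which clears the synthase inhibitor asymmetric dimethylarginine, and the thioredoxin reductase gene Txnrd1. Ddah1 had 82.7 ± 0.461 CPM in knockdown and 66.1 ± 3.45 CPM in control libraries (SD, n = 2 each, adjusted p = 0.162 by edgeR). Txnrd1 had 259.7 ± 0.134 CPM in knockdown and 222.8 ± 2.49 CPM in control libraries (SD, n = 2 each, adjusted p = 0.211 by edgeR). The most abundant by FPKM were Por, Cyb5r3 and Adh5, an alcohol dehydrogenase that reduces S-nitrosoglutathione. Adh5 had 218.9 ± 18.0 CPM in knockdown and 223.4 ± 6.40 CPM in control libraries (SD, n = 2 each), and the intervals of Por and Cyb5r3 also included 0.

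For arginine supply from outside the cell, no difference was detected. Slc7a2 (ENSMUSG00000031596, chromosome 8, 40862396 to 40922308, plus strand) encodes the cationic amino acid transporter CAT2, an arginine carrier that activated mouse macrophages use for nitric oxide production. It had 10.8 and 12.9 CPM in knockdown and 12.8 and 10.9 CPM in control libraries, so the groups overlapped. The log2 fold change was 0.00 with a 95% interval of -0.40 to 0.40 by edgeR (adjusted p = 0.999), which leaves room for a change of up to 1.32 times either way. A lincRNA gene model overlaps it on the opposite strand.

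Of 12 other carriers of cationic amino acids and of mitochondrial ornithine and aspartate, 9 were tested and 0 passed by edgeR, with a median log2 fold change of -0.05. Slc7a1, the constitutive arginine carrier CAT1, was far above Slc7a2 in level per length, at a mean of 23.0 FPKM against 1.16 FPKM over the 4 libraries. It had 297.0 ± 9.95 CPM in knockdown and 293.7 ± 14.1 CPM in control libraries (SD, n = 2 each). Slc3a2, the heavy chain shared by several amino acid exchangers, had 225.8 ± 6.60 CPM in knockdown and 256.5 ± 7.59 CPM in control libraries (SD, n = 2 each, adjusted p = 0.299 by edgeR). Slc25a13, a mitochondrial aspartate and glutamate carrier, had 120.95 ± 2.37 CPM in knockdown and 120.3 ± 5.57 CPM in control libraries (SD, n = 2 each). Under an unadjusted p of 0.05 in edgeR lay 3 of the 9, beside 14.2% of all tested genes. They were Slc3a2, Slc7a7 and Slc25a12, the last 2 named after their values were seen. Slc7a7, the light chain that exports arginine together with Slc3a2, had 92 and 111 counts in knockdown and 288 and 207 counts in control libraries (adjusted p = 0.181 by edgeR). Slc25a12, another aspartate and glutamate carrier, had 100.8 ± 1.05 CPM in knockdown and 84.5 ± 0.0159 CPM in control libraries (SD, n = 2 each, adjusted p = 0.209 by edgeR).

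The citrulline-recycling pair was unequal in level. Asl, argininosuccinate lyase (ENSMUSG00000025533, chromosome 5, 130011258 to 130025019, minus strand), was among the better expressed of the 8 genes, while Ass1, argininosuccinate synthase (ENSMUSG00000076441, chromosome 2, 31470207 to 31520672, plus strand), the step before it, was nearly absent. Asl had 44.6 and 44.3 CPM in knockdown and 56.0 and 49.0 CPM in control libraries, which did not overlap. Its log2 fold change was -0.24 ± 0.10 (SE, 95% interval -0.48 to 0.00, adjusted p = 0.351 by edgeR), and without knockdown library 2 it was -0.23 (adjusted p = 0.619). The higher deposited coordinate of Asl, on the 5′ side of this minus-strand gene, differs from GENCODE M21, where it is 130029247. In that annotation the neighbour Crcp lies 43 bases from Asl.

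Ass1 had 12 and 23 counts in the knockdown libraries and 0 in both control libraries. A count of 0 allows up to 12 counts per library, so knockdown library 1 stood at the floor and only knockdown library 2, the one with albumin mRNA, stood above it. No fold change is given, and Ass1 did not pass (adjusted p = 0.255 by edgeR). The part of the liver traces in its counts was not tested.

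The arginases were at trace levels in every library. Arg1 (ENSMUSG00000019987, chromosome 10, 24915221 to 24927484, minus strand) encodes the cytosolic enzyme of liver and of M2-type macrophages, and Arg2 (ENSMUSG00000021125, chromosome 12, 79130777 to 79156301, plus strand) the mitochondrial one. Arg1 had 4 and 76 counts in knockdown and 43 and 10 counts in control libraries, so the knockdown values enclosed both control values. Its log2 fold change was 0.77 with a 95% interval of -2.66 to 4.21 by edgeR (adjusted p = 0.874). With limma-voom, another method, it was -0.44 on all libraries. By edgeR without knockdown library 2 it was -2.71, so the direction depended on the method and on that library. In that library Alb stood at 1212 counts and Cps1 at 73 counts, and the part of this in the Arg1 value was not tested.

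Arg2 had 5 and 15 counts in knockdown and 16 and 0 counts in control libraries, with the groups overlapping near the floor of 12 counts. Its log2 fold change was 0.50 with a 95% interval of -3.83 to 4.82 by edgeR (adjusted p = 0.948), and leaving out a library turned its sign: it was -0.64 without knockdown library 2 and -0.46 without control library 2. Vti1b and an antisense gene overlap Arg2 on the opposite strand, and the sources used here do not say whether reads were counted by strand. Neither arginase was shown to differ or to be level between the groups.

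Of 20 genes further along, for the urea cycle, ornithine, proline and polyamines, 15 were tested and 0 passed by edgeR, with a median log2 fold change of 0.09. The abundant ones were Srm, spermidine synthase, Oat, ornithine aminotransferase, and Odc1, ornithine decarboxylase. Srm had 517.2 ± 19.6 CPM in knockdown and 492.3 ± 27.1 CPM in control libraries (SD, n = 2 each). Oat had 272.8 and 287.0 CPM in knockdown and 267.5 and 256.6 CPM in control libraries. Odc1 had 380.8 ± 61.3 CPM in knockdown and 335.9 ± 12.6 CPM in control libraries (SD, n = 2 each). In mean FPKM over the 4 libraries, Srm stood at 283.5, Oat at 103.1 and Odc1 at 94.5, against 0.194 for Arg1 and 0.0751 for Arg2. Under an unadjusted p of 0.05 in edgeR were 3 of the 15, named after their values were seen, beside 14.2% of all tested genes. Pycr1, a proline synthesis enzyme, and Azin2 were lower, and Azin1, an antizyme inhibitor, was higher. Their adjusted p were 0.229, 0.337 and 0.293 by edgeR, in that order.

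Acod1 was the most abundant of the 8 genes and fell beside Nos2. It lies on chromosome 14 (ENSMUSG00000022126, 103046977 to 103056573, plus strand), with 1 transcript and no overlapping gene. It had 13256 and 11733 counts in knockdown and 25196 and 18557 counts in control libraries, or 178.99 and 185.3 CPM in knockdown and 330.3 and 300.1 CPM in control libraries. The groups did not overlap, with an SD of 4.47 CPM between the knockdown and of 21.4 CPM between the control libraries. The fitted log2 fold change of Acod1 was -0.79 ± 0.08 (SE, 95% interval -0.97 to -0.61, adjusted p = 0.0152 by edgeR's quasi-likelihood test), a level 0.578 times that of control. The call was lost, with the direction kept, without knockdown library 1 (log2 fold change -0.77, adjusted p = 0.0509), knockdown library 2 (-0.81, 0.0829) or control library 1 (-0.72, 0.0502), and without the robust option (adjusted p = 0.0563). The adjusted p ranged from 2.09e-14 to 0.201 over the 17 alternatives.

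The fitted fall of Nos2 was the larger of the pair. The ratio of Acod1 to Nos2 FPKM was 10.9 and 13.4 in knockdown and 8.11 and 9.08 in control libraries, without overlap. With 2 libraries per group, an exact two-sided permutation test of this ratio cannot go below p = 0.333. The ratio of Acod1 to Asl FPKM was 7.40 and 7.70 in knockdown and 10.9 and 11.3 in control libraries.

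**Figure D4:**
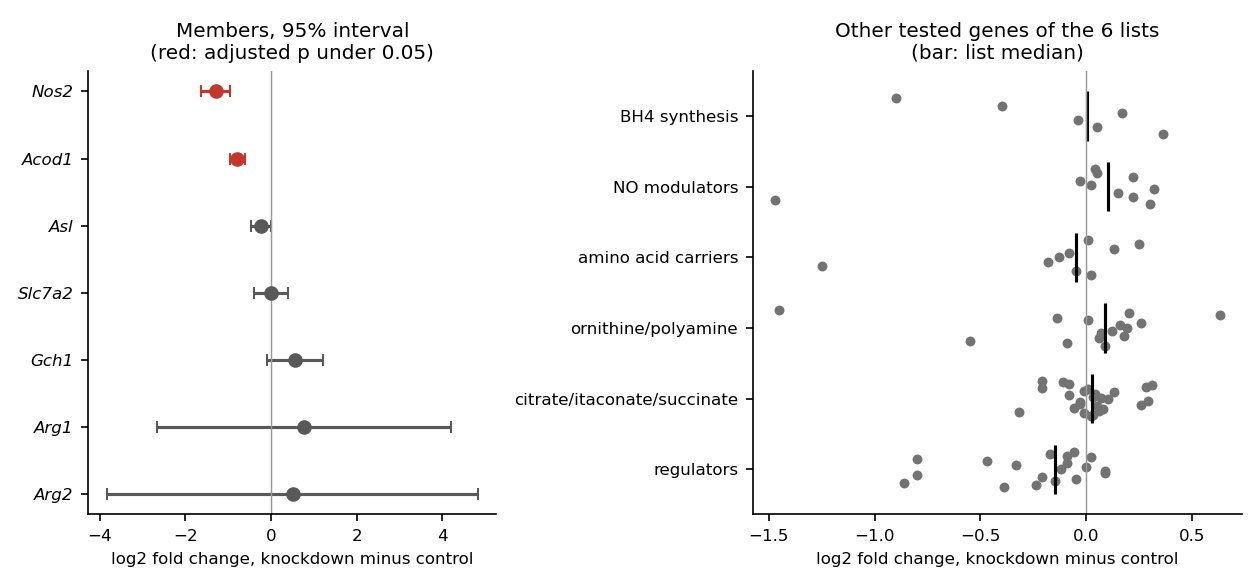
Left, log2 fold change (knockdown minus control) with its 95% interval from edgeR for 7 of the 8 genes, Ass1 being left out because its control libraries were at 0. The intervals of Nos2 and Acod1 lie below 0, and those of Arg1 and Arg2 span more than 6 units on the log2 scale. Right, the fitted log2 fold changes of the other tested genes in each of the 6 lists, with a bar at the list median, none of which passed the test.

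RefSeq promoter windows on GRCm38.p6 were matched for 3 of the 8 genes, Acod1, Gch1 and Ass1. The first pair is printed because LPS induces both genes in mouse macrophages, and here Acod1 fell while Gch1 did not pass the test. Each run is the sequence before the earlier of the RefSeq and deposited start, 5′ to 3′ on the gene's strand: chr14:103046762-103046976 (plus strand) for Acod1 and chr14:47189414-47189663 (minus strand) for Gch1. Capitals mark matches on either strand to NF-κB letters, GGGNNNNNCC or the shorter GGAAATTCC, the second of which was added after the Acod1 sequence had been seen. NF-κB is a transcription factor that LPS activates.
Acod1: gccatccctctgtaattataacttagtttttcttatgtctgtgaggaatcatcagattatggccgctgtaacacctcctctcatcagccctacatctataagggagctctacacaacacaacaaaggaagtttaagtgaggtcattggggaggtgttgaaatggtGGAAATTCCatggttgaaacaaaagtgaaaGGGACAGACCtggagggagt
Gch1: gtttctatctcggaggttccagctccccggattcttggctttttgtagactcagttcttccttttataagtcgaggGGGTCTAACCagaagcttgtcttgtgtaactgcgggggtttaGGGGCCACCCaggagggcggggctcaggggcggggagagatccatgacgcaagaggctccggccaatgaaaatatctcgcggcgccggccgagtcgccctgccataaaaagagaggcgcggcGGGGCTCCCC

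The Acod1 window held the shorter form once, but those letters were added after its sequence had been seen, so this match carries no weight. Of 32851 promoter windows of the same length (215 bases), 0.3% held the shorter form, a share that tests nothing here. The longer form was found once in the Acod1 window, and 40.4% of windows of that length held it. The Gch1 window held the longer form 3 times, and 45.8% of windows of its length (250 bases) held it at least once. No printed match overlaps another. The windows also differed in base composition: Acod1 had 1 CpG and 43.3% G and C, and Gch1 17 CpG and 59.2%. The medians over all windows were 5 CpG and 51.6% at the length used for Acod1, and 6 CpG and 52.4% at that used for Gch1. Neither window held the letters searched for interferon response (GAAANNGAAA), STAT (TTCNNNGAA), C/EBP (TTGCNNAA), AP-1 (TGANTCA), hypoxia-inducible factor (ACGTG) or the MEF3 element bound by sine oculis proteins (TCAGGTTTC). These letters occurred in 2.6%, 6.1%, 8.6%, 6.0%, 14.1% and 0.3% of windows of the length used for Acod1. At the length used for Gch1 the shares were 3.0%, 7.0%, 9.6%, 6.7%, 16.6% and 0.4%. The TATA box letters (TATAAA) were found once in the Gch1 window, on the opposite strand, as in 12.4% of windows of its length, and not in the Acod1 window, where 9.8% of windows of that length held them. The Ass1 window (187 bases), not printed, held GGGNNNNNCC 5 times, counting matches that overlap, and 34.6% of windows of its length held it. A match or its lack describes letters in these windows only.

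Around Acod1, the citrate, itaconate and succinate enzymes and carriers were all tested, 26 of 26, and 0 passed by edgeR, with a median log2 fold change of 0.03. Mdh2, mitochondrial malate dehydrogenase, had 872.0 ± 23.8 CPM in knockdown and 867.7 ± 48.0 CPM in control libraries (SD, n = 2 each). Sdhd, a subunit of succinate dehydrogenase, the enzyme that itaconate inhibits, had 312.95 ± 26.3 CPM in knockdown and 305.3 ± 16.1 CPM in control libraries (SD, n = 2 each). Idh2, mitochondrial isocitrate dehydrogenase, had 296.1 ± 13.2 CPM in knockdown and 283.1 ± 30.1 CPM in control libraries (SD, n = 2 each). Under an unadjusted p of 0.05 in edgeR were 5 of the 26, named after their values were seen, beside 14.2% of all tested genes. The citrate carrier gene Slc25a1, the dicarboxylate carrier gene Slc25a10 and Ogdh were higher, with adjusted p of 0.182, 0.218 and 0.234. Idh1 and the citrate-splitting enzyme gene Acly were lower, with adjusted p of 0.251 and 0.232 by edgeR.

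Of 21 transcription factors and receptors known to act on Nos2, Acod1 or Arg1, 19 were tested and 0 passed by edgeR, with a median log2 fold change of -0.15. The abundant ones were Cebpb, a C/EBP factor induced by LPS, Hif1a and Stat6, the factor of interleukin-4 signalling. Cebpb had 171.3 ± 34.3 CPM in knockdown and 216.0 ± 11.1 CPM in control libraries (SD, n = 2 each, adjusted p = 0.392 by edgeR). Hif1a had 197.7 ± 8.87 CPM in knockdown and 210.1 ± 16.9 CPM in control libraries, and Stat6 135.5 ± 0.898 CPM in knockdown and 126.9 ± 1.34 CPM in control libraries (SD, n = 2 each). Under an unadjusted p of 0.05 in edgeR lay 3 of the 19, beside 14.2% of all tested genes in either direction. All 3 were lower, and they were named after their values were seen. They were Irf1, a factor that Nos2 induction in mouse macrophages needs, and Irf7 and Stat2 of the interferon response. Irf1 had 19.1 ± 0.196 CPM in knockdown and 25.0 ± 1.85 CPM in control libraries (SD, n = 2 each, adjusted p = 0.227 by edgeR). Irf7 had 5.22 ± 0.330 CPM in knockdown and 9.49 ± 2.80 CPM in control libraries, and Stat2 5.52 ± 0.570 CPM in knockdown and 9.60 ± 1.43 CPM in control libraries (SD, n = 2 each, adjusted p = 0.197 and 0.162 by edgeR). Tlr4, the LPS receptor, also named after its values were seen, had 301 and 2057 counts in knockdown and 2356 and 2014 counts in control libraries. It did not pass, with a log2 fold change of -0.80 (95% interval -5.65 to 4.05, adjusted p = 0.868 by edgeR). Only knockdown library 1 was low.

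In all, 85 of the 100 listed genes were tested, and 0 passed in either direction by edgeR, beside the 0.953% of all tested genes. At an unadjusted p of 0.05 there were 7 higher and 10 lower, or 17 of 85, beside 14.2% of all tested genes.

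The genes whose pattern lay nearest to Nos2 and Acod1 were found by the distance between log2 CPM centred on each gene's own mean, over 4 libraries and 9379 candidate genes, which depends on the size of the change as well as its pattern and tests nothing. For Nos2 they were Rnf144a, a ubiquitin ligase gene, Rarg, retinoic acid receptor gamma, Hp, the acute-phase protein haptoglobin, and Kctd12, at distances of 0.175, 0.210, 0.254 and 0.269 log2 units. Hp had 19.3 and 18.3 CPM in knockdown and 43.6 and 43.4 CPM in control libraries. For Acod1 they were Sla, a Src-like adaptor, Tmem134, Fgf11 and Pfkfb4, a regulator of glycolysis, at distances of 0.0757, 0.0936, 0.0941 and 0.101 log2 units. Pfkfb4 had 8.72 and 8.39 CPM in knockdown and 14.9 and 13.4 CPM in control libraries. Rarg, Sla and Pfkfb4 did not pass the test (adjusted p = 0.0624, 0.0751 and 0.101 by edgeR), while the other nearest genes did.

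**Figure D5:**
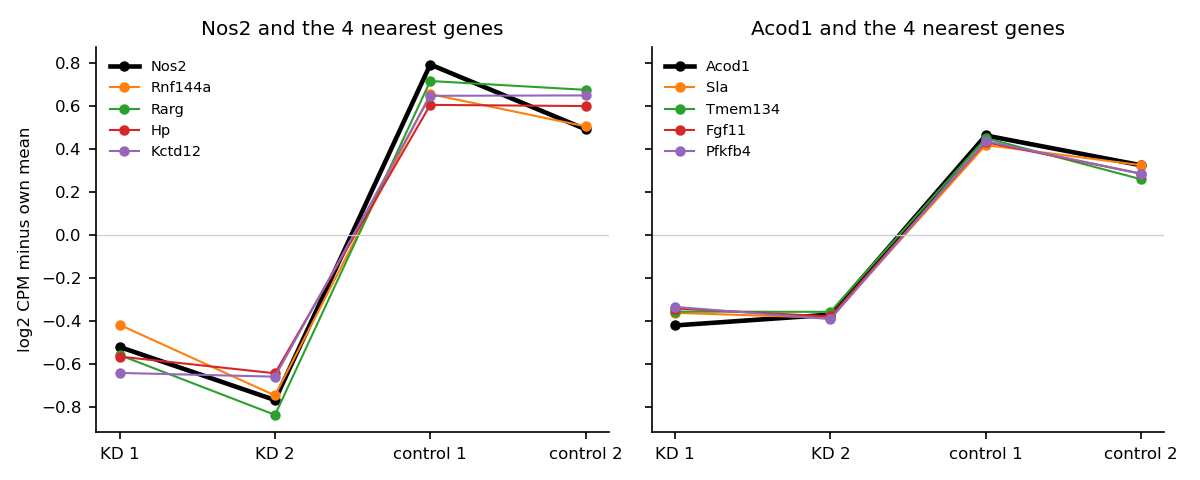
log2 CPM minus the gene's own mean over the 4 libraries for Nos2 (left) and Acod1 (right) in black, each with its 4 nearest genes in colour. All lines are low in both knockdown (KD) libraries and high in both control libraries, since the distance selects for that pattern.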

How the data were processed

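RNA sequencing of 4 BV-2 libraries was compared, 2 SIX2 knockdown and 2 control by their genotype label. Oligo-dT beads selected the mRNA and dUTP marked the second strand, per the labels' protocols. The deposited estimated counts were whole numbers per Ensembl gene, not normalised. The deposited FPKM, named so per the file headers, were scaled by the authors for gene length and for depth. The submitters' processing notes name the build mm8 and Bowtie 0.12.2, yet 21093 of 24422 genes (86.4%), and 7 of the 8 described, have the coordinates of GENCODE M21, so GRCm38 is used. How reads were counted is not given in the sources at hand. Another 12 columns that match no labelled sample were not used.

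In R 4.3.3, edgeR 4.0.16 tested all genes at once: filterByExpr, TMM, a robust quasi-likelihood fit, no covariate, two-sided, Benjamini-Hochberg adjustment over all 15733 tested genes, threshold 0.05. SE is the log2 fold change over the root of F. The code was checked on simulated counts. CPM are TMM-scaled. By rule the genes named are the 8, Six2, from each of 6 lists any that passed and the 3 highest in mean FPKM, and the 4 nearest in pattern to each of the 8 that passed (official symbol, at least 5 CPM, prior count 2). Other list genes were named after their values were seen: those under an unadjusted p of 0.05, and Tlr4. Some genes that the rule or the marker lists name are not reported here. The genes and lists were chosen with earlier results of these data known. Alternatives used DESeq2 1.42.0, limma 3.58.1 and other settings given in the closing section.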

Additional observations from a re-analysis of the deposited data

How the results depend on the processing

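The falls of Nos2 and Acod1 kept their direction in all 17 alternatives. They ran from -1.43 to -1.13 and from -0.86 to -0.72 on the log2 scale. The alternative at an adjusted p of 0.01 reuses the reported fit, so its direction could not differ. Of the 17, 7 ended the call of Nos2 and 8 that of Acod1. Both passed under RLE factors, library totals, no filter or a stricter one, counts divided by 4, limma-voom and DESeq2. In none of the 17 was any of the 8 called higher. The number of the 8 called lower, 2 as reported, was 0 at an adjusted p of 0.01, without the robust option, and with limma on log2(FPKM + 1) or log2(FPKM + 0.1). It was 0 to 2 when 1 library was left out. The number of changed genes, 150 as reported, was 7 at an adjusted p of 0.01, 7 without the robust option, 297 with no filter, 65 with limma-voom, 680 with DESeq2, 0 with limma on either FPKM scale, and 41 to 112 when 1 library was left out. Of the other pathway genes 0 to 1 were called lower when 1 library was left out, the 1 being Tlr4 without knockdown library 2. That fit kept 1 knockdown library, where Tlr4 had 301 counts, and left out the one with 2057 counts. The cause of these differences was not tested, and a fit without 1 library keeps fewer samples.

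Titles number the libraries 1 and 2 in both groups. With the replicate block, 0 genes were called, 0 of the 8 among them. Deviations of same-numbered libraries correlated at -0.185 over 9982 genes, so the numbers are not taken as pairs. With the numbers crossed, an alternative chosen after seeing the data, 119 genes and 2 of the 8 were called.

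The sign of uncalled genes turned in places. Arg1 was -0.084 with the replicate block, -0.075 with it crossed, -0.44 with limma-voom, and -2.71 to 1.93 when 1 library was left out. Arg2 was -0.64 without knockdown library 2 and -0.46 without control library 2, and up to 6.35 without control library 1, which leaves its control at 0. Slc7a2 was 0.003 with no filter and -0.13 to 0.12 when 1 library was left out, 0.12 without knockdown library 1 and 0.117 without control library 1. Arg1, Arg2 and Ass1 rest on 0 to 76 counts per library, at about 4 counts per fragment, and the part of depth in their spread was not tested.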
